A study of Mus musculus with 36 samples.

Results

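The regions described here are the H3K9me3 bins that lie near the distal ends of the mouse autosomes, the chromosome ends away from the centromere. A bin was taken as a member when its end lay within 2 Mb of the largest bin end listed for that chromosome over the 6 deposited tables, for chromosomes 1 to 19. The rule found 2012, 2349 and 1924 members among 114317, 133697 and 109596 autosomal bins in the 3 tables of females, and 2477, 2666 and 1747 members among 147360, 158810 and 101386 autosomal bins in the 3 tables of males. The outermost bins lay 101261 to 252474 bp inside the ends of the GRCm38 (mm10) chromosomes, so the last stretch of each chromosome, with the telomere itself, held no listed bin. That stretch is not shown to lack the mark, and whether reads could map there was not examined.

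Trimethylation of lysine 9 of histone H3 (H3K9me3) was profiled by ChIP-seq in offspring liver after maternal obesity, in 32 ChIP libraries (8 groups of 4) beside 4 input libraries. The groups were female and male offspring of dams on control chow (Con) or on a Western-style diet (MO, maternal obesity) from before mating through lactation, at 3 or 8 weeks of age. All offspring carried 1 or 2 loxP-flanked Reg3g alleles on a C57BL/6J background, as floxed littermate controls. The 3-week mice were taken before weaning and the 8-week mice, which were other animals, had eaten chow since weaning, so age cannot be told apart from cohort or diet at sampling.

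Each table covered 8 libraries of 1 sex: Con at 3 and 8 weeks (the control-age table), Con and MO at 3 weeks (the 3-week table), or Con and MO at 8 weeks (the 8-week table). Its level is the average log2 CPM of a bin (reads of the bin scaled to the library's size) over those 8 libraries, as deposited. It carries no value per library, so it has no replicate error here and no difference between Con and MO, or between ages within a table, could be computed from it. The 6 tables were normalized separately and a level set across them is a description. The files give no depth per library, and the tissue could not be checked against expression markers in a ChIP table.

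H3K9me3 is the mark of constitutive heterochromatin. SUV39H enzymes deposit it at pericentromeric and telomeric repeats, and SETDB1, brought by TRIM28 and KRAB zinc finger proteins, deposits it at transposable elements and imprinted regions. HP1 proteins, among them CBX5, read the mark. Mouse autosomes have their centromere at one tip, so only the distal tip joins gene-bearing DNA to a telomere through a subtelomeric stretch.

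Sequences under 4 of the stronger places are shown first, chosen after their levels were seen because they differ in kind. The place of second rank, in an exon of Ppp2r3d, is described with the levels. The sequences are stretches of 300 bases of the GRCm38 plus strand from the bin retained in the female control-age table, read from the RefSeq copy of that assembly. The first lies in intron 19 of Pcca, which encodes a subunit of propionyl-CoA carboxylase, at chr14:122776719-122777018. Capitals mark 2 copies of a 20-base run that recurs at 13 chromosome ends, their starts 199 bases apart in a tandem array.
Pcca intron: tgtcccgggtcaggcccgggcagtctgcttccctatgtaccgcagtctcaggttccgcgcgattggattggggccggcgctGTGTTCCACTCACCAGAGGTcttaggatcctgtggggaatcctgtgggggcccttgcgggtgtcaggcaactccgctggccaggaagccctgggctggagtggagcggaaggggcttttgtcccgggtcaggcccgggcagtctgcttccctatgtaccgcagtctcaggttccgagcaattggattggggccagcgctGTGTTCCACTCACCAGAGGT
The second lies in intergenic DNA 10147 bp from the start of Zfp1006, a zinc finger gene, at chr8:129211486-129211785, and the third covers the promoter of Pdzd8, a gene for a protein of the endoplasmic reticulum, at chr19:59345711-59346010. The fourth covers the promoter of Tcfl5, a transcription factor of the male germ line, at chr2:180642694-180642993. Capitals mark every CpG in these last sequences, 17 near Zfp1006, 55 at Pdzd8 and 23 at Tcfl5.
Zfp1006 intergenic: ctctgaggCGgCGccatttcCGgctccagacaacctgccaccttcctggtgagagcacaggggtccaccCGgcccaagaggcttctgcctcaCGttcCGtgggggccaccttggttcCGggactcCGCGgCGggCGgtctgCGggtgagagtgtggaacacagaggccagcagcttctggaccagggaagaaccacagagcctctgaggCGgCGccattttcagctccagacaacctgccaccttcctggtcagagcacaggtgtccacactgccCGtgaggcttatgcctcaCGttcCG
Pdzd8 promoter: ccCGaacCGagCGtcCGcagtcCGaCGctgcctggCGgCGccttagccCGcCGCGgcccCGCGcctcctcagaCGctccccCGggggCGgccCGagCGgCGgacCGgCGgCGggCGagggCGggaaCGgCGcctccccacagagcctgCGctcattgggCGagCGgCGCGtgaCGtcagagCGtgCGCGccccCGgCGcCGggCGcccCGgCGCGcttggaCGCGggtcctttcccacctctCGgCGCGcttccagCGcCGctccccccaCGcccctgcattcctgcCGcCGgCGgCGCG
Tcfl5 promoter: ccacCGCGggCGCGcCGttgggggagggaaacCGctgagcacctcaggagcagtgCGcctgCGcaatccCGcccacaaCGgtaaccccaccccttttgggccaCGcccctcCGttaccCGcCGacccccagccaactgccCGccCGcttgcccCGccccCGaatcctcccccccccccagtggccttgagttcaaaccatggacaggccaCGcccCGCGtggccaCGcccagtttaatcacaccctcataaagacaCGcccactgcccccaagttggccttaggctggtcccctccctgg

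Pooled over the 19 autosomes, the distal ends held somewhat more bins per Mb than the rest. Only 8 of 19 ends in the female control-age table and 7 of 19 in that of males were denser than the rest of their own chromosome. In the control-age tables, females had 52.9 bins per Mb in the windows against 47.6 elsewhere, and males 65.2 against 61.3. The ratio was 1.11 in each of the 3 tables of females and 1.06, 1.06 and 1.09 in the control-age, 3-week and 8-week tables of males. The excess rested on where the end was set. With ends taken from the GRCm38 chromosome lengths the ratio of the control-age tables was 1.00 in females and 0.954 in males, and with a 1-Mb window 1.01 and 0.957. Windows set by the GRCm38 lengths include the stretch beyond the outermost bin, which holds no listed bin, and this by itself lowers the ratio. The neighbouring zone, 2 to 10 Mb from the end, was denser, with 77.1 bins per Mb in females and 100.8 in males, so that the distal windows held 0.686 and 0.647 of its density. A zone of equal width at the centromeric side, counted from the first bin of each chromosome, held 49.8 bins per Mb in females and 61.3 in males.

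Pooled over the ends, levels of the distal-end bins were close to those of other autosomal bins in all 6 tables. The median was 2.65 log2 CPM (95% order-statistic interval 2.63 to 2.66) for the members of the female control-age table and 2.64 for the other autosomal bins. In the male control-age table the medians were 2.10 (2.09 to 2.12) and 2.10. The 3-week tables gave 2.40 against 2.40 in females and 2.05 against 2.03 in males, and the 8-week tables gave 2.63 against 2.62 and 2.74 against 2.74. The intervals cover the spread over bins only, and neighbouring bins are not independent. The pooled median is weighted by the ends with many bins. End by end, the median of the window exceeded that of the rest of its own chromosome at 15 of 19 ends in the female control-age table and at 13 in that of males, and at 13 to 15 in the other 4 tables, with differences from -0.08 to 0.32 in the control-age table of females. The strongest bins of the autosomes were not members. The highest level among members was 4.88 log2 CPM in the female control-age table, against 9.31 among the other bins, and 4.98 against 8.99 in that of males.

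**Figure D1:**
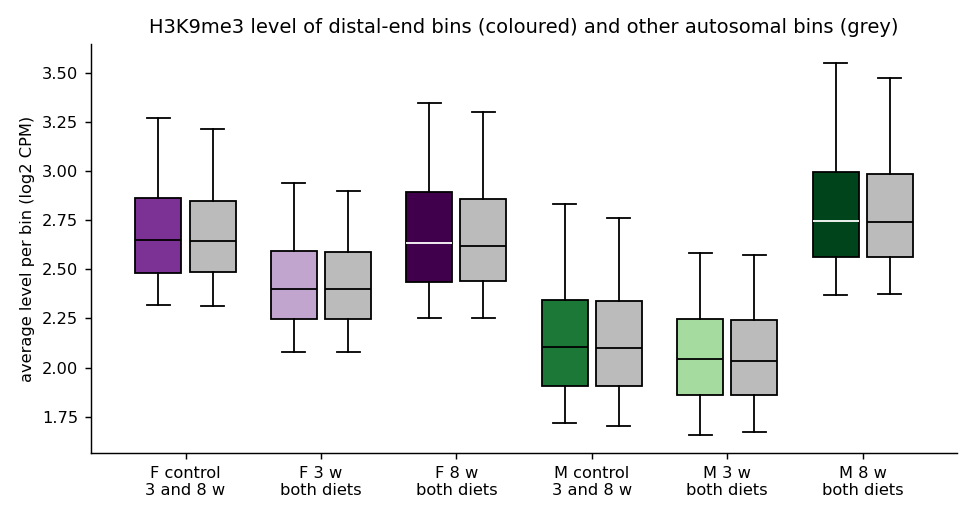
Average level per bin (log2 CPM) in the 6 tables, for distal-end bins (coloured boxes) and all other autosomal bins (grey boxes). Boxes span the quartiles with the median as a line and whiskers run from the 5th to the 95th percentile of bins. The paired medians nearly coincide, at 2.65 and 2.64 in the first pair and at 2.74 and 2.74 in the last.

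Within the window the level was highest in the outermost 0.25 Mb. In the outermost 0.25 Mb the median was 2.78 log2 CPM over 271 bins of the female control-age table, 2.67 over 647 bins at 0.25 to 1 Mb and 2.60 over 1094 bins at 1 to 2 Mb. In males the medians were 2.28 over 316 bins, 2.10 over 801 and 2.08 over 1360. The same order held in the other 4 tables, where the outermost zone stood at 2.50 and 2.80 in the 3-week and 8-week tables of females, against 2.37 and 2.57 at 1 to 2 Mb. In males it stood at 2.17 and 2.92, against 2.02 and 2.71. Inside that zone the last 0.1 Mb stood above the bins at 0.1 to 0.25 Mb in females, at 2.80 against 2.77, and below them in males, at 2.21 against 2.29. Density followed another course. It was 64.7 bins per Mb in the last 0.1 Mb of females, 44.7 at 0.5 to 1 Mb, 64.8 at 1.5 to 2 Mb and 82.1 at 2 to 4 Mb, and in males 71.1, 55.8, 78.6 and 107.6 in the same zones.

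The outermost zone also had another make-up. Bins of which more than 80% of bases are soft-masked as repeats in the reference made up 29.2% of the outermost 0.25 Mb in the female control-age table, 14.5% at 0.25 to 1 Mb and 7.77% at 1 to 2 Mb. In males the shares were 23.4%, 13.5% and 7.57%. Such repeat-rich bins had higher levels than the others over the whole window, with medians of 2.86 against 2.62 in females and 2.35 against 2.08 in males, as did the other autosomal bins, at 2.87 against 2.62 and 2.35 against 2.08. Among the bins that were not repeat-rich, the outermost zone still stood higher, at 2.75 against 2.65 and 2.59 in females and at 2.17 against 2.07 and 2.06 in males. Promoter bins were fewest in the outermost zone, 18.8% in females and 19.3% in males, against 35.4% and 33.2% at 0.25 to 1 Mb.

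**Figure D2:**
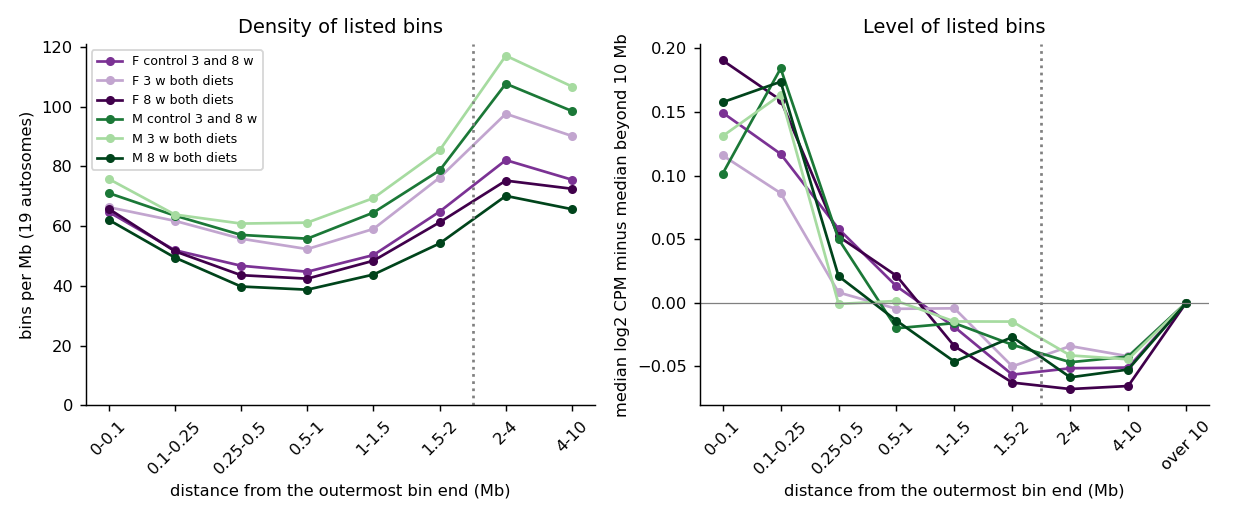
Density of listed bins per Mb over the 19 autosomes (left) and median level minus the median of bins beyond 10 Mb of the same table, in log2 CPM (right), by distance from the outermost bin end, for the 6 tables. The dotted line marks 2 Mb. Density is lowest at 0.5 to 1 Mb in most tables, 44.7 in the female control-age table, and the level is highest within 0.25 Mb.

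Pooled over the ends, promoters were a larger share of the members than of other autosomal bins. With a promoter taken as within 3 kb of a start site, 29.8% of members (95% Clopper-Pearson interval 27.8 to 31.8) were promoter bins in the female control-age table and 21.4% of the others. In males the shares were 27.5% (25.7 to 29.3) and 20.2%. Over all 6 tables the members' share ran from 26.7% to 30.5% and that of the others from 19.6% to 22.8%. The zone of equal width at the centromeric side had a like share, 28.5% in females and 28.2% in males, and the zone at 2 to 10 Mb a lower one, 20.0% and 18.1%. End by end the members' share varied widely. It ran from 5.0% on chromosome 18 to 48.4% on chromosome 15 in the female control-age table. In that of males it ran from 4.2% on chromosome 17 to 45.8% on chromosome 15. The larger share thus did not hold at every end. Gene bodies held 35.4% of members against 40.4% of other bins in females and 36.7% against 41.7% in males. Intergenic bins held 34.8% against 38.1%, and 35.8% against 38.0%. The median GC content of members was 0.64 percentage points higher in females and 0.60 in males, at 55.0% and 54.5%, while the ratio of observed to expected CpG was lower, 0.256 against 0.280 and 0.242 against 0.270.

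The peaks that the bins were cut from had longer medians than the other autosomal peaks but shorter ones than those at 2 to 10 Mb. The members came from 2566 distinct peaks of females and 2786 of males, with median lengths of 853 and 846 bp against 795 and 746 bp for other autosomal peaks. Counted over bins, the median peak length was 947.5 bp for members, 837 bp for other autosomal bins and 1172 bp at 2 to 10 Mb in the female control-age table, and 919, 806 and 1048 bp in that of males. It fell to 619.5 and 619 bp at 0.1 to 0.25 Mb from the tip. Of the distinct peaks near the ends, 13.6% and 13.3% were over 3 kb long, against 10.7% and 9.32%. The longest ran over 36.4 kb at chr11:120263161-120299559 in females, near Bahcc1, and over 31.0 kb at chr11:119993283-120024284 in males, over Baiap2 and the neighbouring Aatk. Their retained bins stood at 2.50 log2 CPM in the female control-age table and 1.70 in that of males, below the members' medians of 2.65 and 2.10.

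The number of members varied widely between chromosomes. The ends of chromosomes 7, 4, 2, 15 and 11 held 1112 of the 2012 members of the female control-age table, or 55.3%, and the same ends held 1373 of 2477 in males, or 55.4%. Chromosome 7 had 290 bins in females and 382 in males, which was 2.53 and 2.59 times the density of the rest of that chromosome. The fewest were 40 on chromosome 18 in females and 46 on chromosomes 3 and 8 in males. The ends of chromosomes 8, 17, 18, 12 and 13 held at most 0.53 of their own chromosome's density in both sexes. In all, 8 of 19 ends in females and 7 of 19 in males were denser than the rest of their chromosome.

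Ends with few bins had the higher levels. In females the median was 2.98 log2 CPM at the end of chromosome 18, 2.95 on chromosome 8, 2.89 on chromosome 12 and 2.88 on chromosome 14, against 2.58 on chromosome 7 and 2.56 on chromosome 4. In males the same ends stood at 2.43, 2.33, 2.37 and 2.41, against 2.01 and 2.08. Over the 19 ends Spearman's rho between the number of bins and the median level was -0.89 in females and -0.83 in males. The GC content of the window, which ran from 38.0% on chromosome 18 to 49.9% on chromosome 4, had a rho of 0.85 and 0.87 with the number of bins and of -0.91 and -0.85 with the median level. The soft-masked share of the window had a rho of 0.79 and 0.87 with the level, and the number of protein-coding start sites, from 2 on chromosome 17 to 91 on chromosome 10, a rho of 0.69 and 0.69 with the number of bins. These are descriptions over 19 points that share libraries and, between the sexes, the sequence of the windows. Their part in the pattern was not tested.

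**Figure D3:**
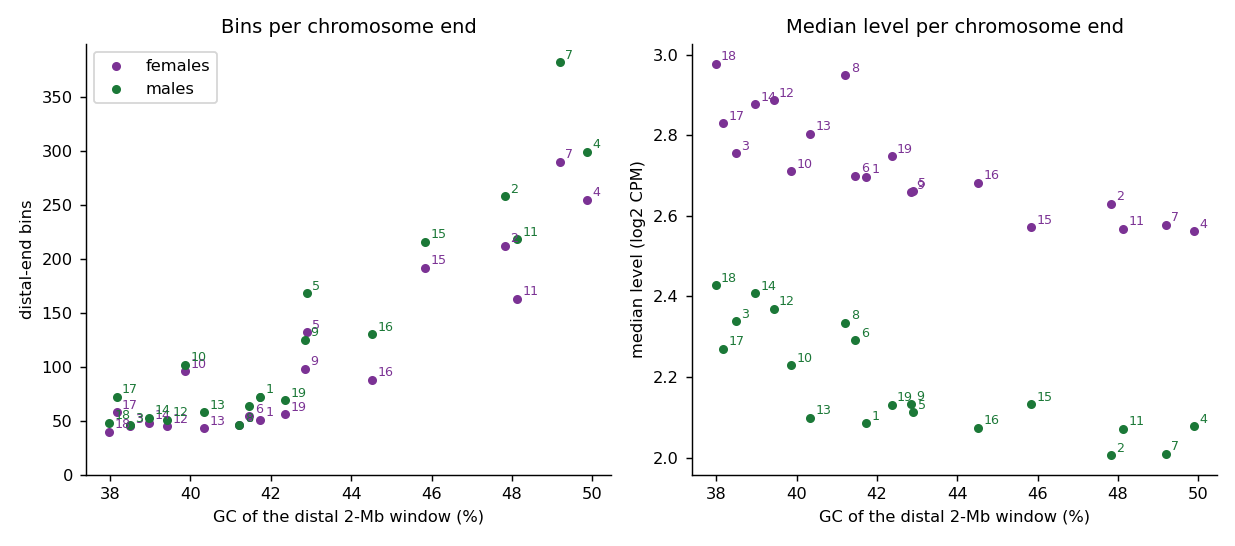
Number of distal-end bins (left) and their median level in log2 CPM (right) against the GC content of the 2-Mb window, for the 19 autosomes (numbers beside the points) in the control-age tables of females (purple) and males (green). Chromosomes 4 and 7 hold many bins at low medians, and chromosome 18, at 38.0% GC, few bins at medians of 2.98 and 2.43.

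The retained bin of a peak often changed from table to table. Of 2566 peaks of females, 1647 had a distal-end bin in all 3 tables of females, and 1039 of these, or 63.1%, the same bin. In males 1669 of 2786 peaks and 955 bins (57.2%) did so. Peaks were built separately for each sex, and only 2 bins were listed with equal coordinates in all 6 tables. One lay in intron 2 of Abcb5 (chr12:118954692-118955192), a transporter gene, at 3.08, 2.61 and 3.29 log2 CPM in the control-age, 3-week and 8-week tables of females and 2.84, 2.29 and 3.61 in those of males. The other lay in intergenic DNA nearest to Resf1 (chr6:149275635-149276135), a gene that acts in retroelement silencing, at 3.32, 3.24 and 3.56 in females and 3.10, 2.93 and 3.82 in males. When female and male peaks that overlapped by at least 50% of both were joined, 984 places had a retained distal-end bin in all 6 tables, 59.7% of the female peaks and 59.0% of the male peaks listed in their 3 tables. Over these 984 places Spearman's rho of the levels between the sexes, which share no library, was 0.54 for the control-age tables, 0.49 at 3 weeks and 0.58 at 8 weeks.

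The place with the highest mean level over the 6 tables lay near Zfp1006 on chromosome 8, within 57.4 kb of the outermost bin and 80.8% soft-masked, with 17 CpGs in the stretch shown above. It stood at 4.33, 3.50 and 4.75 log2 CPM in the control-age, 3-week and 8-week tables of females and at 3.99, 3.01 and 5.12 in those of males. Next came an exon of Ppp2r3d on chromosome 9, a gene for a regulatory subunit of protein phosphatase 2A, in a peak of 5518 bp at chr9:124437392-124442909. Its levels were 4.43, 3.54 and 4.06 in females and 4.27, 3.24 and 4.56 in males. The Pdzd8 promoter followed at 4.09, 3.60 and 4.14 in females and 4.04, 3.18 and 4.71 in males, with a GC content of 77.8% over its bin and no soft-masked base. The tandem array in Pcca, fully soft-masked, stood at 3.82, 3.52 and 4.04 in females and at 3.75, 3.24 and 4.57 in males. In all 4 places the 3-week table of a sex was the lowest.

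The Tcfl5 place was represented by different bins. Its promoter peak, 2689 bp long in females, stood at 4.88 and 4.02 log2 CPM in the control-age and 3-week tables of females but at 2.81 in the 8-week table, and at 4.98, 1.95 and 3.32 in the tables of males. The bin at chr2:180642694-180643194 was retained in the first 2 of these tables of females and that at chr2:180643194-180643694 in the other, while each table of males retained another bin. How much of the spread came from the choice of bin was not tested. Of the strongest places of the 19 ends, 11 were intergenic, 3 were promoters, 9 were over 80% soft-masked and 10 lay within 0.25 Mb of the outermost bin. Their mean level over the 6 tables ran from 4.12 near Zfp1006 to 2.89 near Pcp4 on chromosome 16. Intergenic places near Stard13 on chromosome 5 (3.65), Adcyap1 on chromosome 17 (3.54) and Depdc1a on chromosome 3 (3.49) were all repeat-rich. The Ptchd3 promoter on chromosome 11, at a mean of 3.80, held no soft-masked base.

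**Figure D4:**
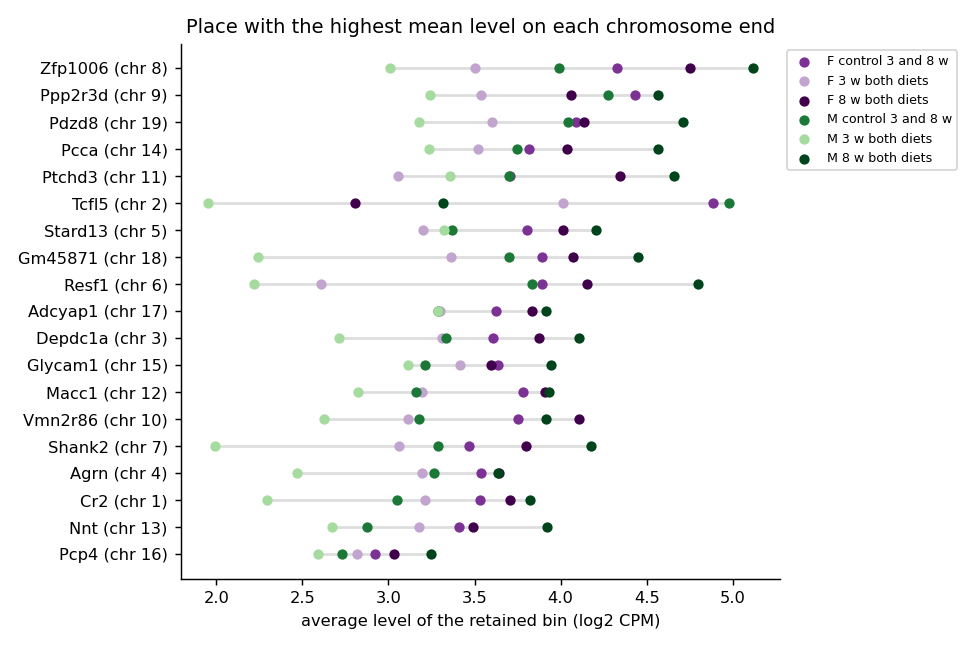
Level of the retained bin (log2 CPM) in each of the 6 tables for the place with the highest mean level on each of the 19 chromosome ends, named by the nearest gene. Grey lines join the lowest and highest table. The 8-week table of males is the highest at most places, 5.12 at Zfp1006, and Tcfl5 spreads from 1.95 to 4.98.

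The outermost bins of the 19 ends were listed in different tables. In the same table each was lower than the strongest place of its chromosome, except on chromosome 2, at 3.33 against 2.81, and on 1 other, where it was the retained bin of that place. The highest was 3.79 log2 CPM in the 8-week table of males, in an exon of Gm26463 on chromosome 5 (chr5:151702369-151702869). The lowest was 1.92 near Mucl1 on chromosome 15 in the 3-week table of males. Only 2 of them were promoter bins, at Samd11 on chromosome 4 (2.37, female control-age table) and Gm21814 on chromosome 6 (2.02, male control-age table).

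Some sequence runs recurred under the members. The 20-base runs found in the most members of the female control-age table were collected on either strand (leaving out any run that shared over 60% of its bins with a more frequent one). The most frequent was a plain CA repeat, in 41 bins with a median of 2.59 log2 CPM, against 2.64 for the members searched. Of the 12 most frequent runs, the ones with the highest medians in the control-age tables are shown with 1 of the others, each in capitals throughout.
Run 2: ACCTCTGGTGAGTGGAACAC
Run 6: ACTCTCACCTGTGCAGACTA
Run 8: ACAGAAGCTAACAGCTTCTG
Run 10: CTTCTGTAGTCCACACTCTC
Run 11: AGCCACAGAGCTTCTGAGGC
Run 3: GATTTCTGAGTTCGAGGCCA
Run 2, the one in the Pcca array, lay in 36 members of the female control-age table with a median of 2.99, of which 32 were above the members' median. In males it lay in 37 members at 2.46, against 2.10, with 31 above. Its bins had a median of 89.5% soft-masked bases in females. Run 6 lay in 24 bins of each sex at medians of 3.02 and 2.65, and run 8 in 23 bins of each at 3.12 and 2.73. Run 10 lay in 22 and 18 bins at 3.11 and 2.60. Run 11 had a median of 3.26 over 20 bins in females, all above the members' median, and of 2.73 over 17 bins in males, 16 of them above. Run 3 lay in 30 and 42 bins at 2.62 and 2.02, slightly under the members' medians. Bins of one run share sequence and are not independent.

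Run 2 was nearly as frequent elsewhere as near the ends, in 1.83% of members and 1.75% of other bins in females and in 1.52% and 1.44% in males. Run 11 lay in 1.01% against 0.699% in females and 0.700% against 0.560% in males. Run 2 was most frequent at the tip, in 5.04% of the bins of the outermost 0.25 Mb in females and 3.32% in males. Outside the distal ends its bins had medians of 3.04 and 2.60. The hexamer of the telomere repeat, TTAGGG, was sought on both strands and was found in 15.8% of members and 14.2% of other bins in females and in 15.3% and 14.2% in males. TGCCGC, the core that ZFP57 binds when methylated, was found in 14.4% and 13.3%, and in 12.6% and 12.0%. In the 3-week tables TGCCGC was slightly rarer in members, at 11.4% against 11.7% in females and 10.7% against 11.0% in males. In the 8-week tables it was more frequent, at 16.6% against 13.9% and 16.4% against 14.8%. A match is a description of letters and not a bound site.

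The members lay nearest to 518 genes over the 6 tables, and genes are ranked here by their bins summed over these tables. Shank2 on chromosome 7, which encodes a scaffold of the postsynaptic density, had the most bins, 68 in the female control-age table and 99 in that of males, at medians of 2.57 and 2.00 log2 CPM. Prdm16 on chromosome 4, a transcription factor of brown fat cells, followed with 37 and 47 bins at 2.49 and 2.02. Then came Fry on chromosome 5 with 34 and 47 bins at 2.62 and 2.09, and Ano1 on chromosome 7, a chloride channel gene, with 27 and 40 at 2.54 and 1.98. All 4 medians lay below those of all members in both sexes. Mettl4 on chromosome 17, the next gene, had 27 and 34 bins at 2.81 and 2.28, above those of all members.

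Zinc finger genes, many of which encode repressors of transposable elements, numbered 13 near the ends. Their bins were above the members' median in 25 of 38 cases in the female control-age table and 30 of 51 in males, with medians of 2.82 and 2.20. Outside the distal ends the medians of zinc finger bins were 2.69 and 2.17. Beside Zfp1006, the highest were Zfp445, whose product binds imprinting control regions, at 3.63, 2.76 and 3.47 in the control-age, 3-week and 8-week tables of females and 3.18, 3.22 and 3.47 in males. Zfp105 reached 3.31, 2.81 and 3.43 in females and 2.78, 2.36 and 3.91 in males. The lowest, Zfp740, had no bin above 2.60. Receptors of smell and of pheromones also had bins above the members' median, and above the autosomal median elsewhere. Of the vomeronasal and olfactory list 15 of 17 bins in females and 15 of 18 in males were above the members' median, at medians of 2.88 and 2.64. Under the newer symbols of olfactory receptors, 29 genes all on chromosome 10, 28 of 35 and 30 of 39 bins were above, at 2.88 and 2.32. Outside the distal ends the medians of the first list were 2.86 and 2.35, and those of the second 2.84 and 2.28. The highest bins of the first list were those of Vmn2r86 on chromosome 10 in females, at 3.75, 3.11 and 4.10, and those of Vmn2r18 on chromosome 5 in males, at 3.41, 2.82 and 4.31. Or10p21 was high among the second, at 3.55, 3.31 and 3.88, and at 3.19, 2.76 and 3.95.

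The Hoxc cluster of chromosome 15, which holds developmental transcription factor genes and the long noncoding RNA Hotair, was covered by bins of 10 genes, 30 in females and 35 in males in the control-age tables. Of these 13 and 20 were above the members' median, at medians of 2.56 and 2.18. Hoxc10 peaked at 3.68 in the 8-week table of males, in its promoter, and stood at 2.86, 3.15 and 2.86 in the tables of females. The 5 fibroblast growth factor genes had 42 and 44 bins, 24 and 19 above the median. Fgf14 on chromosome 14 reached 3.67 and 2.94 in the control-age tables, and Fgf15, the gut hormone that limits bile acid synthesis in liver, 2.70 and 2.05.

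The imprinted genes around Kcnq1 at the end of chromosome 7 gave 51 bins for 10 genes in females and 59 in males, at medians of 2.58 and 2.07, with 20 and 27 above the members' median. Cdkn1c, a maternally expressed inhibitor of the cell cycle, was the highest of them, with a promoter bin at chr7:143459389-143459889 at 4.10 in the female control-age table. Its best bins stood at 3.36 and 3.19 in the other tables of females and at 3.53, 2.96 and 3.39 in those of males. Phlda2, an imprinted gene of placental growth, reached 2.83, 2.77 and 2.72 in females and 2.64, 2.63 and 2.90 in males. Solute carriers numbered 9 genes near the ends, with 13 of 39 and 16 of 48 bins above the members' median. The highest was Slc6a20b, an amino acid transporter of chromosome 9, at 3.20, 3.00 and 3.62 in females and 3.11, 2.62 and 3.90 in males. Slco4a1, a transporter of organic anions, reached 3.71 in the 8-week table of males.

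Of the telomere list, 1 of the 13 genes with an autosomal bin lay near the ends, Rtel1, a helicase that keeps telomeres intact. Its promoter bin stood at 2.46 in the 3-week table of females, and its highest bins at 2.27 and 2.28 in the control-age and 3-week tables of males. Of the H3K9 methylation list it was 1 of 12, Cbx5, with bins at 2.76, 2.19 and 2.98 in the tables of females and at 2.41 in the 8-week table of males, its promoter among them. No cadherin, cytochrome P450 or serpin gene was nearest to a member.

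The 8-week tables gave higher levels than the 3-week tables, over the ends as a whole as elsewhere. Among bins with equal coordinates in both tables, 1192 members of females had medians of 2.53 log2 CPM at 3 weeks and 2.74 at 8 weeks, a median difference of 0.22 (0.21 to 0.24), and 924 of them were higher at 8 weeks. In males 1123 members had medians of 2.20 and 2.80, a median difference of 0.63 (0.62 to 0.65), and 1110 were higher. The other autosomal bins differed by 0.22 over 70780 bins in females and by 0.63 over 67534 in males. Of the other bins, 79.4% and 98.9% were higher at 8 weeks, against 77.5% and 98.8% of the members. Relative to the other bins, the members stood at 0.00 in both sexes when pooled. The ends ranged around that value, from -0.099 on chromosome 7 to 0.23 on chromosome 8 in females and from -0.092 to 0.15 on the same chromosomes in males. The difference was larger than over the rest of the same chromosome at 14 of 19 ends in females and 12 in males. A shift of all bins may come from the number of bins and reads that each table was scaled over, and that part cannot be told apart from a change with age.

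The tip departed from the shift of all bins. In the outermost 0.25 Mb the median difference was 0.31 over 189 bins in females and 0.73 over 185 in males, 0.094 and 0.095 above the other autosomal bins. At 0.25 to 1 Mb it was 0.22 and 0.61, and at 1 to 2 Mb 0.20 and 0.63. Bins that exceeded the median shift of their sex by over 0.5 made up 14.3% of the outermost zone in females (27 bins) and 15.7% in males (29 bins), against 3.44% and 5.40% of other autosomal bins. Repeat-rich members differed more than the rest in both sexes, 0.39 against 0.19 in females and 0.77 against 0.61 in males, which also held for other autosomal bins at 0.38 against 0.19 and 0.77 against 0.61. Among bins that were not repeat-rich, the outermost zone stood 0.069 above the other autosomal bins in females and 0.072 in males, and among repeat-rich bins 0.052 and 0.072 above.

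The 2 sexes, with no library in common, ranked the members alike to a moderate degree. Of the bins of females and males, 524 pairs overlapped by at least 50% of both, with medians of 0.31 and 0.67 and a Spearman's rho of 0.46 over pairs, against 0.42 over 31941 pairs elsewhere. Of these pairs, 450 were higher at 8 weeks in both sexes and 5 lower in both. Since 451 of the 524 pairs were higher in females and 518 in males, a count near 450 follows from the shift of all bins and does not measure agreement. In 16 pairs both sexes exceeded their own median shift by over 0.5, and in 2 pairs both fell short of it by as much. Such counts were not made for pairs elsewhere.

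The largest difference was that of the bin near Zfp1006, from 3.50 to 4.75 log2 CPM in females (a difference of 1.25) and from 3.01 to 5.12 in males (2.11). The bin in intron 1 of Vmn2r18 (chr5:151592832-151593332) went from 2.96 to 3.89 in females (0.93) and from 2.31 to 4.31 in males (2.00), and an intergenic bin nearest to Ptchd3 (chr11:121864248-121864748) from 2.97 to 4.03 (1.06) and from 3.00 to 4.50 (1.50). These bins lay 57.4, 109.5 and 112.0 kb from the outermost bin of their chromosome, and all were over 80% soft-masked in the coordinates of females. Other bins with large differences in both sexes differed in kind, and those given here were picked with their values known. Some were also repeat-rich and near the tip. An intergenic bin nearest to Tmx3, 123.9 kb from the outermost bin and 97.2% soft-masked, differed by 0.89 and 1.61. A bin in intron 2 of Ccdc7b, at 144.9 kb and 98.4% soft-masked, differed by 0.94 and 1.46. Others lay further in or held few repeats. Of these, named after their values were seen, a bin in exon 21 of Fry, 1308.6 kb from the outermost bin and with no soft-masked base, differed by 1.00 and 1.35, and a bin at the Rxfp2 promoter, further in than that of Fry and 4.79% soft-masked, by 0.91 and 1.39. At the other end stood an intergenic bin nearest to Or6c6 on chromosome 10 (chr10:129358804-129359193), lower at 8 weeks by 0.41 and 0.29, with levels of 2.80 and 2.39 in females and 2.85 and 2.56 in males. A bin nearest to Ergic2, in intron 3 of Far2 (chr6:148146748-148147248), went from 3.18 to 2.88 in females and from 2.98 to 2.84 in males. A bin in intron 2 of Dennd5b (chr6:149074553-149074826) went from 2.51 to 2.41 and from 2.57 to 2.38. These last bins lay 1164.6, 1419.2 and 491.6 kb from the outermost bin.

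**Figure D5:**
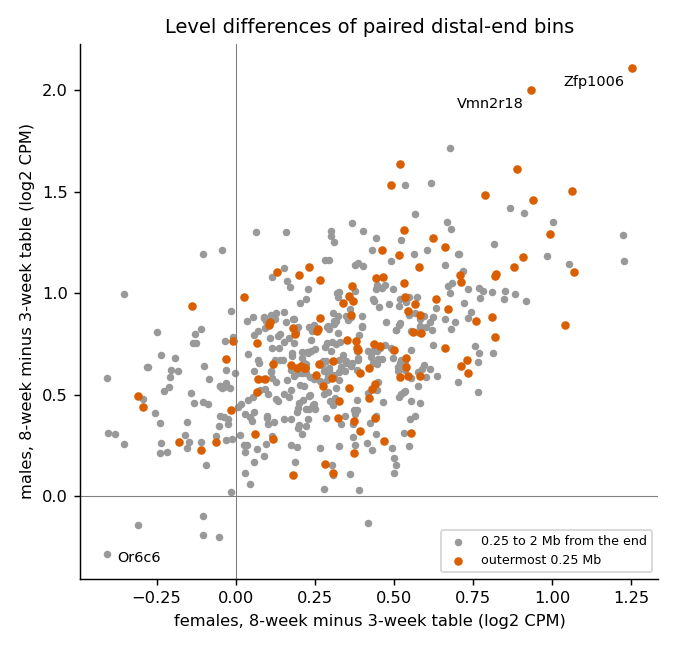
Level in the 8-week table minus level in the 3-week table (log2 CPM) for 524 pairs of overlapping female and male distal-end bins, females on the horizontal and males on the vertical axis. Orange points lie in the outermost 0.25 Mb. Points shift upward as a whole, with Zfp1006 at 1.25 and 2.11 at the top right and Or6c6 at -0.41 and -0.29 at the lower left.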

How the data were processed

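H3K9me3 ChIP-seq of offspring liver was aligned by the authors with BWA to mm10, peaks were called with MACS2 as broad peaks, kept when found in at least 3 replicates, merged over conditions for each sex, cut into 500-bp bins and counted with featureCounts. The deposited level is the average log2 CPM of a bin over the 8 libraries of a contrast. Each table lists 1 bin per peak, by a choice that is not given in the sources used here. The tables also hold the authors' own fold changes, p-values and false discovery rates, which were not used. Columns of other samples not used numbered 0.

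Members, densities, medians with 95% order-statistic intervals, shares, overlaps and sequence features were computed with Python 3.11.15 (pandas 2.3.3, numpy 2.4.6, scipy 1.17.1), and the interval and overlap functions were tested on simulated data. Sequence, GC content and soft-masking came from the RefSeq GRCm38 assembly, start sites from GENCODE. Chromosome 18 was left out of the search for recurring runs and of printed sequence. No test was run, since no value per library was used. The members and lists were chosen with earlier results of these data known. For each end the strongest place, the outermost bin, the 3 largest and 3 smallest age differences of the same sign in both sexes, and the highest bin of listed genes were named. Since only 2 bins had equal coordinates in all tables, places were named by overlapping peaks, an alternative chosen after seeing the data, as were the newer olfactory receptor symbols, the genes around Kcnq1, the removal of a pseudogene from the solute carriers, the recurring runs, and which of the listed genes to describe. Some items of the gene lists are not reported here.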

Additional observations from a re-analysis of the deposited data

How the results depend on the processing

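Values for females and males come from the control-age tables. With a window of 1 Mb the density ratio was 1.01 and 0.957, the level difference from other bins 0.066 and 0.044, and in males the promoter share 29.3% and the GC difference 0.82 points. With 4 Mb these were 1.44 and 1.43, -0.032 and -0.030, 24.2% and 22.0%, and 0.14 and 0 points, and the GC difference of the 3-week table of males turned to -0.026. With ends taken from the GRCm38 lengths the density ratio was 1.00 and 0.954, so the higher density depends on where the end is set. With full-width bins only, the promoter share was 34.1% and 32.4%, the density ratio of males 1.12 and the GC difference of females 0.80. With bins above the table's median, the GC difference of females was 0.38. Against bins 2 to 10 Mb from the end the density ratio was 0.686 and 0.647, the level difference 0.050 and 0.042, and the GC difference 1.08 and 1.02. Within GC deciles the level difference of males was -0.013, and with promoters within 1 kb the share was 19.4% and 17.7%. Bins listed in all 6 tables rose from 2 to 466 with an overlap of at least 50% of both bins and to 984 places by peaks. The age difference was 0.0036 and 0.0022 after centring on all shared bins, 0.24 in females with 1 Mb, 0.19 and 0.62 with 4 Mb, and, added after seeing the data, 0.31 and 0.73 in the outermost 0.25 Mb. The causes were not tested. Under the other 28 alternatives the values stayed within the 95% interval of the reported value (a Poisson interval of the bin count for density, 1.07 to 1.16 and 1.02 to 1.11), and the count in all 6 tables was again 2 with full-width bins.

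No paired analysis was possible because the tables hold no value per library, and for the same reason leaving out a replicate was not run. The files give no depth per library, so the precision of a single bin's level cannot be given, and a bin absent from a table is not shown to lack the mark.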
